A study of Mus musculus with 12 samples.

Results

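The mitochondrial ribosomal protein genes were examined in mouse liver with and without dietary simvastatin. Members were taken by name: every gene of the filtered count table whose symbol starts with Mrpl or Mrps followed by a digit. This gave 77 genes of 11968, of which 48 are named for the large (Mrpl) and 29 for the small (Mrps) subunit. Livers came from C57BL/6J mice of both sexes that were put on diet at 8 to 10 weeks of age and stayed on it for 4 weeks. The 4 groups were females on chow, females on chow with simvastatin, males on chow and males on chow with simvastatin, with 3 livers in each. Simvastatin, an inhibitor of HMG-CoA reductase, was given at 0.1 g/kg, which the sample labels refer to body weight and the study's methods to food. The question was whether statin feeding shifted the hepatic mRNA of the mitochondrial translation machinery, and whether it did so differently in females and males.

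Mitochondria build their own ribosomes. The RNA core is encoded in mitochondrial DNA, while all of the proteins are encoded in the nucleus, made in the cytosol and imported, with the Mrpl proteins mostly in the large subunit that joins amino acids and the Mrps proteins mostly in the small subunit that reads the codons. These ribosomes make only the few mitochondrially encoded subunits of the respiratory chain and the ATP synthase, and they sit at the inner membrane, where the new proteins are inserted. Liver is rich in mitochondria and its hepatocytes carry out fatty acid oxidation and urea synthesis there.

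Each library held between 46066381 and 60419223 counts, and the members took 0.161% to 0.280% of them. Xist was at 214 CPM (counts scaled to the library total) or more in all livers labelled female and at 0.929 CPM or less in all livers labelled male. The 8 hepatocyte markers summed to between 80580 and 162664 CPM in each liver. Their sums overlapped between the sexes on chow. On statin they did not, at 118047 to 162664 CPM in females and 85498 to 102674 CPM in males. Since these are whole pieces of liver, fewer cells of a type and less RNA per cell cannot be told apart. All levels below are CPM after TMM scaling, edgeR's adjustment of library size. Every difference is on the log2 scale from edgeR's quasi-likelihood test, with p-values adjusted over the 11968 genes.

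Promoter letters are shown for 3 members, Mrpl9 and Mrps18b because they were the only members whose level passed the test in any comparison, and Mrps12 because it starts next to another mitochondrial translation gene. The factors NRF1 and the ETS protein GABP are known regulators of nuclear genes for mitochondria. Each window is 300 bases around the RefSeq start in build GRCm38.p6, written 5′ to 3′ on the gene's own strand. Mrps18b also holds the ETS letters, read on the opposite strand at the end of its window, and there they are left in lower case. Capitals mark the NRF1 letters in Mrpl9 (chr3:94443086-94443385, plus strand), their shorter core at 2 places in Mrps18b (chr17:35916391-35916690, minus strand) and the ETS letters in Mrps12 (chr7:28741772-28742071, minus strand).
Mrpl9: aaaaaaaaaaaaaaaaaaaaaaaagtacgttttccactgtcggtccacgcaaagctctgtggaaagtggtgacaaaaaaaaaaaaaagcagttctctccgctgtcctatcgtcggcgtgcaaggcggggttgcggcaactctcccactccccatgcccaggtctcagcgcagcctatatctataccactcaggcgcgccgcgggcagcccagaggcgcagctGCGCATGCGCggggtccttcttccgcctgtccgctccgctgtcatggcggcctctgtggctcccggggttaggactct
Mrps18b: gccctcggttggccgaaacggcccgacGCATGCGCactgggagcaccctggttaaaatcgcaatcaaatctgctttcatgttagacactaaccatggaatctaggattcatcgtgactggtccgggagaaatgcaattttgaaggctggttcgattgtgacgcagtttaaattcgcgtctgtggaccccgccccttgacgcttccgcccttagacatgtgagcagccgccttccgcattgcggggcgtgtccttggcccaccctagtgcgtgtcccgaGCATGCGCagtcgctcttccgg
Mrps12: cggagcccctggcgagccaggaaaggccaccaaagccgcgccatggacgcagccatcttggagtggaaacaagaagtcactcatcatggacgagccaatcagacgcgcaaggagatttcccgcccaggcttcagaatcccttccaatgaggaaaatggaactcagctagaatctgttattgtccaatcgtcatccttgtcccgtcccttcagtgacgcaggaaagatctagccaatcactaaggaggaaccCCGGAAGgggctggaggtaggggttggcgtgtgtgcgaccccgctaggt

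Motifs were searched on both strands in the 68 members with a RefSeq promoter, and every share is set beside that of the 9342 genes of the count table with one. The core of the NRF1 motif, GCATGCGC, occurred in 8 members (11.8%, against 5.94%). With GC in front of this core, which gives the full NRF1 palindrome, it occurred in 3 members (4.41%, against 2.4%), namely Mrpl9, Mrpl32 and Mrpl39. The ETS letters CCGGAAG occurred in 25 members (36.8%, against 20.2%). The YY1 letters AAGATGGCG occurred in 8 members (11.8%, against 3.75%). By contrast, the SP1 letters GGGCGG were in 34 members (50%, against 67.6%) and the E-box CACGTG in 5 (7.35%, against 12%). TCACNCCAC, one spelling of the sterol response element, occurred in 0 members (1.5% of the promoters of the table). A match of letters is a description and was not tested as a binding site.

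The members lay on 17 chromosomes, with 11 on chromosome 11 and 8 on chromosome 17. For 33 members, a coding gene on the opposite strand started within 1000 bases of their own start. Mrps12, whose protein lines the decoding centre, was 172 bases from Sars2, the mitochondrial seryl-tRNA synthetase. Mrpl46 and Mrps11, a large- and a small-subunit member, overlapped each other head to head. For 35 members another gene on the opposite strand overlapped, and for 12 one on the same strand. The libraries kept strand, but whether the counting used it is not given in the sources used here. Among the genes below the filter, 6 symbols also matched the naming rule. Of these, 5 are processed pseudogenes, with 0 to 22 reads in any liver, and the other is Mrpl53, a coding gene listed with 0 reads in all livers. Its span (chr6:83109040-83109939, plus strand) lay wholly within Gm42688 on the same strand, which had 18 to 75 reads per liver.

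All members were moderately expressed. Mean levels over the 12 livers ran from 6.31 CPM to 117 CPM, with a median of 25.1 CPM. Per kilobase of exon, which allows genes to be compared, the median was 9.86 CPM per kb, and the 90th percentile was 8.93 times the 10th. Mrpl12, a stalk protein that also binds the mitochondrial RNA polymerase, had the highest level at 76.3 CPM per kb. Mrpl14 and Mrpl34 followed at 47.9 and 39.2 CPM per kb. Mrpl33, Mrps25 and Mrpl23 were lowest at 1.05, 1.43 and 1.76 CPM per kb. Both ends of this order depend on the length used, and the loci at the low end carry long annotated exons. With the median transcript length in its place, a choice made after seeing the data, Mrpl12 and Mrpl14 stayed on top and Mrps30, Mrps26 and Mrps22 were lowest, while the 90th percentile was 5.39 times the 10th.

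**Figure D1:**
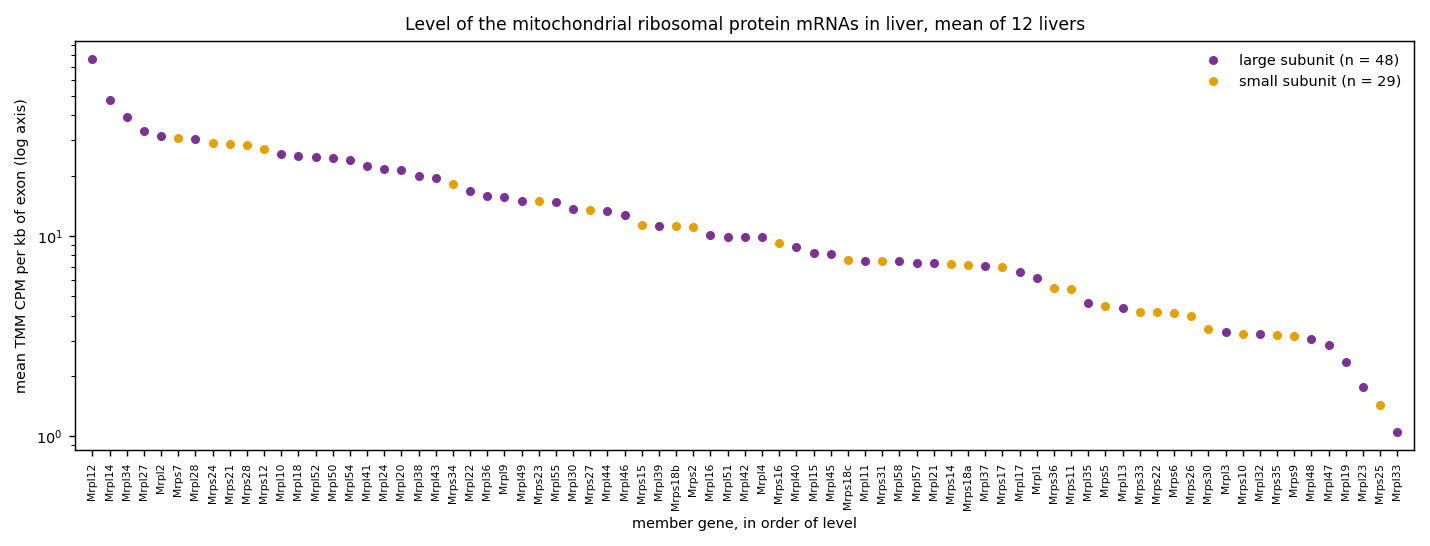
Mean TMM CPM per kb of exon over the 12 livers (log axis) for the 77 members, ordered by level and coloured by the subunit each is named for. The order runs from Mrpl12 at 76.3 to Mrpl33 at 1.05 CPM per kb, its first 5 places are held by large-subunit members, and the highest small-subunit member stands at 30.7 CPM per kb.

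In females, no member differed detectably between statin and chow at the spread of these livers. None of the 77 passed an adjusted p of 0.05 (0.1% of all genes did), and 0 passed an unadjusted p of 0.05 (10.5% of all genes did). The median difference was 0.03, the extremes were −0.41 and 0.38, and 44 of 77 members were on the positive side (52.8% of all genes were). The 95% interval of every member lay within a 2-fold change in either direction, and for 50 members within 1.5-fold. In 1 member the 3 statin livers were all above the 3 chow livers (6.03% of all genes), and in 2, Mrpl38 and Mrps18b, they were all below (5.97% of all genes). The smallest p belonged to Mrps28, a small-subunit protein. It read 24.5, 31.6 and 26.7 CPM in the chow females and 25.7, 17.1 and 19.6 CPM in the statin females. The groups overlapped through the first statin liver. The difference was −0.41 ± 0.20 (SE) with an adjusted p of 0.524 in edgeR.

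Mrps6, another small-subunit protein, stood at 6.21, 10.2 and 7.70 CPM on chow and 7.43, 4.96 and 5.74 CPM on statin in females. These overlapped too, and the difference was −0.41 ± 0.23 (edgeR adjusted p 0.608). The largest positive value was that of Mrpl17, a large-subunit protein with a bacterial counterpart. Chow females had 43.8, 45.4 and 42.8 CPM, close together, and statin females 66.1, 41.4 and 63.9 CPM, so that 2 statin livers were high and 1 was below every chow liver. The difference of 0.38 ± 0.20 had an adjusted p of 0.576 in edgeR. Mrps26 had 13.5, 13.0 and 14.9 CPM on chow and 18.0, 13.1 and 19.1 CPM on statin, and Mrpl49 had 23.6, 25.5 and 24.6 CPM on chow and 31.5, 21.5 and 30.9 CPM on statin. In both, 2 statin livers were high and the second lay within or below the chow range, with differences of 0.28 ± 0.16 and 0.19 ± 0.15. Mrpl9 was the one member whose statin females were all higher, at 39.1, 39.3 and 40.8 CPM against 33.3, 37.9 and 35.4 CPM on chow. Its difference of 0.16 ± 0.09 did not pass the test (edgeR adjusted p 0.635).

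Males gave the same count. On statin, 0 members passed an adjusted p of 0.05 (0% of all genes did) and 0 passed an unadjusted p of 0.05 (1.96% of all genes did). The median difference was 0.08, with extremes of −0.16 and 0.38, and 65 of 77 members were positive (51% of all genes were). All intervals lay within 2-fold and 52 within 1.5-fold. Every statin liver was above every chow liver in 3 members, Mrpl38, Mrps2 and Mrps31 (3.64% of all genes), and the reverse in 0 members (4.3% of all genes). For Mrps31 this rested on 24.24 CPM in the first statin male against 24.16 CPM in the first chow male, which are nearly equal. Mrps2, a small-subunit protein with a bacterial counterpart, had the smallest p. Chow males were at 30.7, 33.2 and 30.1 CPM and statin males at 35.1, 36.0 and 35.7 CPM. The separation was narrow, 0.18 ± 0.11, with an adjusted p that rounded to 1.00 in edgeR. Mrpl15 had the largest difference, 0.38 ± 0.23, from chow values of 63.5, 51.3 and 49.9 CPM and statin values of 48.1, 80 and 86.7 CPM. One statin male was therefore below, and the other two above, every chow male. On the lower side Mrps27, a pentatricopeptide repeat protein of the small subunit, was at 32.8, 28.0 and 31.2 CPM on chow and 26.5, 28.3 and 27.7 CPM on statin. Its difference was −0.16 ± 0.14. Mrpl47 at 0.24 ± 0.15, Mrps31 at 0.22 ± 0.13, Mrpl37 at −0.09 ± 0.10, Mrps25 at −0.14 ± 0.20 and Mrpl40 at −0.06 ± 0.19 also did not pass.

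The signs in both sexes hung on single livers. Without the first statin female, 18 of 77 members were positive in females, and without the second, 61 were. Without the third statin male, 29 were positive in males, and without the first, 73 were. The median difference over the members moved between −0.12 and 0.17 in females and between −0.03 and 0.23 in males as each liver was left out. The count of members at an unadjusted p of 0.05 in females became 7, all lower on statin, without the first statin female (14.0% of all genes in that fit, in either direction) and 3, all higher, without the second (15.4% of all genes). In males it became 3, all higher, without the first statin male (5.87% of all genes). Each of these counts is a smaller share of the 77 members than of all genes in the same fit. The adjusted count stayed at 0 in both sexes whichever liver was left out.

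**Figure D2:**
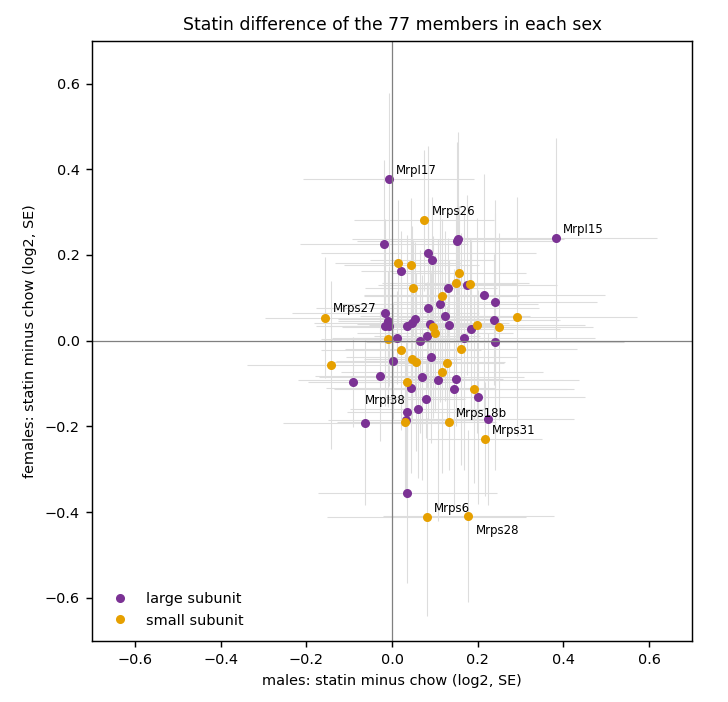
Statin minus chow (log2) in males on the horizontal axis and in females on the vertical axis, one point per member with its SE as grey lines. The cloud is centred near 0, with 44 of 77 members positive in females and 65 of 77 in males.

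The test of the difference in response between the sexes called no member. The female minus male response had 0 members at an adjusted p of 0.05 (0% of all genes) and 1 at an unadjusted p of 0.05 (8.01% of all genes). Its median was −0.07, 19 of 77 members were positive (51% of all genes were), and the intervals of 65 members lay within 2-fold. This count moved between 9 without the first statin female and 52 without the second, and the median between −0.22 and 0.06 as each liver was left out. The member in question was Mrps31, a small-subunit protein particular to mitochondria. The count became 6 without the first statin female (1440 of the 11968 genes in that fit) and 3 without the first statin male (9.95% of all genes), and 0 without any 1 of 8 other livers. Chow females had 27.8, 26.5 and 26.7 CPM and statin females 27.8, 19.4 and 21.9 CPM. Chow males had 24.2, 22.4 and 21.2 CPM and statin males 24.2, 27.6 and 27.0 CPM. One statin liver of each sex sat at the chow level while the other two were lower in females and higher in males. The statin difference was −0.23 ± 0.13 in females (edgeR adjusted p 0.634). The difference between responses was −0.45 ± 0.19, with an unadjusted p of 0.0353 and an adjusted p of 0.572 in edgeR. Mrps28 (−0.59 ± 0.28) and Mrps18b (−0.32 ± 0.16) came next, each with an adjusted p of 0.663 in edgeR. Mrpl17 was first on the positive side at 0.39 ± 0.28, followed by Mrpl9 at 0.14 ± 0.13, Mrps27 at 0.21 ± 0.20 and Mrps26 at 0.21 ± 0.23, with adjusted p-values of 0.930, 0.930 and 0.955 for these 3 in edgeR.

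A list of 12 members with well-described roles was followed separately. It held Mrpl2 and Mrpl3 at the catalytic core, Mrpl10 and Mrpl12 of the stalk, Mrpl44 with its RNase III fold, and Mrpl58, which frees stalled ribosomes. It also held Mrps12, the paralogs Mrps18a, Mrps18b and Mrps18c, and Mrps22 and Mrps34, whose human counterparts are mutated in respiratory chain deficiency. Of these, 0 had an unadjusted p under 0.05 for statin in females (10.5% of all genes did) or in males (1.96% of all genes did). The median difference was 0.02 in females and 0.06 in males. In females the extremes by p were Mrps34 at 0.18 ± 0.15 and Mrps18b at −0.19 ± 0.11. In males they were Mrps18b at 0.13 ± 0.11 and Mrpl10 at −0.01 ± 0.12.

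What did vary was the level of the whole group from liver to liver within a diet group. The median deviation of the 77 members from their own 12-liver means was −0.15, 0.04 and 0.03 in the chow females and 0.21, −0.38 and 0.02 in the statin females. It was 0.14, 0.03 and −0.13 in the chow males and −0.22, 0.13 and 0.31 in the statin males. In the second statin female only 1 of 77 members was above its mean, and in the third statin male 75 of 77 were. The statin groups overlapped the chow groups in both sexes and reached further in both directions. The summed level of all members was 2102 ± 163 CPM (SD, n = 3) in chow females and 2154 ± 432 CPM (SD, n = 3) in statin females. For males it was 2164 ± 203 CPM on chow and 2319 ± 404 CPM on statin (SD, n = 3).

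**Figure D3:**
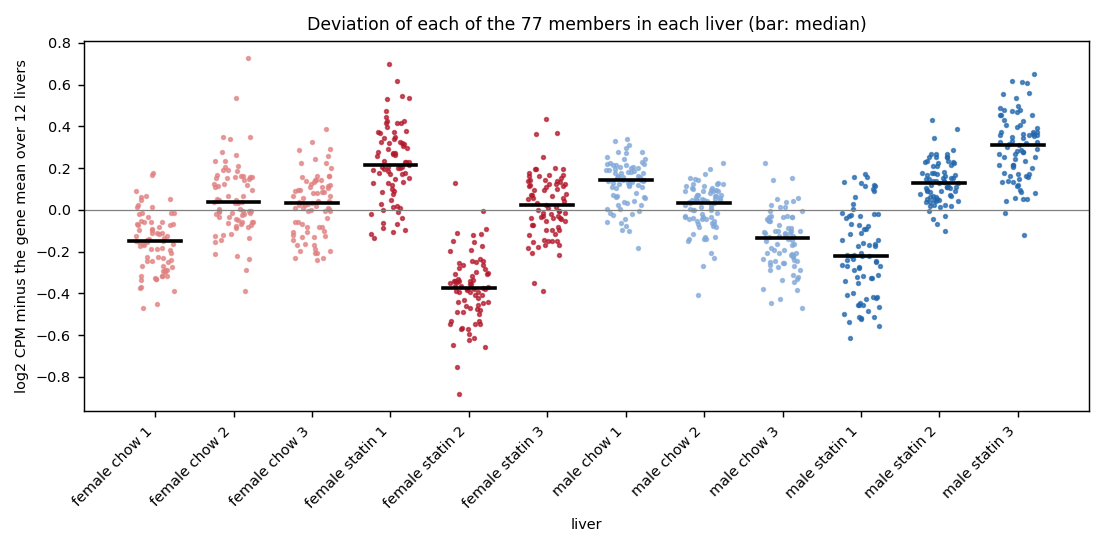
Deviation of each member from its own mean over the 12 livers (log2 CPM, points) in each liver, with the median as a black bar. Members shift as a block within a group, from a median of −0.38 in the second statin female to 0.31 in the third statin male.

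Nearly all members took part. After each group's mean was removed, the level of a member and the median of the other members had a median Pearson correlation of 0.94 over the 12 livers, and it was above 0.5 for 70 of 77 members. Among 7495 other genes with a mean above 10 CPM the median was −0.24, and 2360 were above 0.5. The shared movement was not particular to the members. Against their median, 38 nuclear complex I subunit genes had a median correlation of 0.96 and 77 cytosolic ribosomal protein genes one of 0.93. The points share their library, and the figures are given as a description. Mrpl13 (0.99), Mrpl58 (0.99) and Mrpl12 (0.99) followed the group most closely. Mrpl12 shows the pattern, with 88.2, 112 and 110 CPM in chow females, 153, 82.6 and 129 CPM in statin females, 133, 111 and 100 CPM in chow males and 96.6, 126 and 161 CPM in statin males. Its highest and its lowest value were both in statin livers. The members that did not follow were Mrps2 (−0.34), Mrps5 (−0.30), Mrpl39 (−0.14), Mrpl45 (−0.05), Mrpl38 (0.12), Mrpl37 (0.20) and, at 0.50, Mrpl9. They varied little, and Mrpl45, which holds the ribosome at the inner membrane, stayed between 19.5 and 24.8 CPM in all 12 livers.

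Exon length, merged over all annotated transcripts of a gene, moved with this. The members are short, with a median exon length of 2533 bases against 4670 bases for the 7562 genes with a mean above 10 CPM, and 41 of 77 fell within the shortest 20% of those genes. In each liver the deviations of the 7562 genes were correlated with exon length across genes, with a Spearman coefficient between −0.40 and 0.42, and its sign was opposite to that of the members' median in 11 of 12 livers. The 7562 genes include 70 of the members, so the members themselves helped set this trend. The first statin female (−0.40) and the third statin male (−0.35), where members were high, had relatively more counts on short genes. The first statin male (0.42) and the second statin female (0.34), where they were low, had fewer. When the length trend of each liver was removed, the medians ran from −0.25 to 0.16, and their pooled SD within groups was 0.128 against 0.221 before. The order of the extremes stayed, with the second statin female lowest and the third statin male highest. What the remaining movement follows was not tested.

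**Figure D4:**
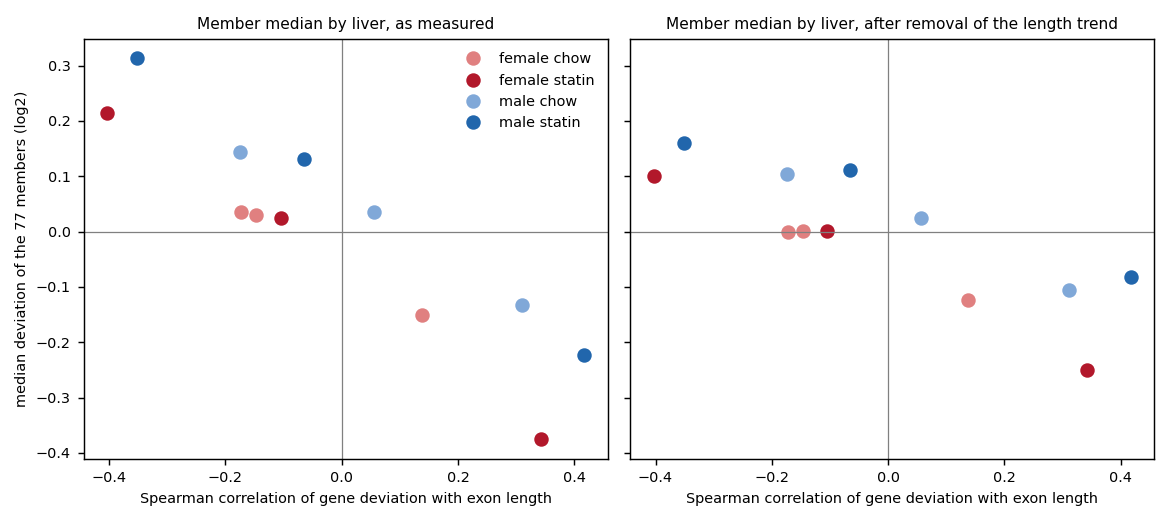
Median deviation of the 77 members (log2) in each of the 12 livers against the Spearman correlation of gene deviation with exon length in that liver, as measured (left) and after removal of the length trend (right). The points fall from upper left to lower right, and the vertical range shrinks from −0.38 to 0.31 on the left to −0.25 to 0.16 on the right.

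With the length trend taken into account in the fit for females, Mrps28 (−0.41), Mrps6 (−0.41) and Mrpl21 (−0.37) had an unadjusted p under 0.05, in place of 0 members. In the same fit 11.7% of all genes had such a p, and no member passed the adjusted p. The lowest of these was Mrps28, with an adjusted p of 0.127 in edgeR.

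Between the sexes, single members differed. On chow, 1 of 77 members passed the adjusted p (10.4% of all genes did) and 7 an unadjusted p of 0.05 (24.9% of all genes), of which 2 were higher (13.3% of all genes) and 5 lower in females (11.6% of all genes). The count of 7 became 3 without chow female 2 (20.2% of all genes in that fit) and 4 without chow male 1 (19.5% of all genes). Livers of the sexes did not overlap for 4 members higher in females (18.5% of all genes) and 8 lower in females (19.1% of all genes). The member that passed was Mrpl9, a large-subunit protein with a bacterial counterpart whose promoter is printed above. Its chow females, at 33.3, 37.9 and 35.4 CPM, were all below its chow males, at 47.3, 45.6 and 46.3 CPM. The difference was −0.39 ± 0.09, a ratio of 0.766, with an adjusted p of 0.0227 in edgeR. It rested on all 6 chow livers but 1: leaving out any of them but the second female raised the adjusted p to between 0.0619 and 0.0870, while the difference stayed between −0.40 and −0.35. The call was also lost with no filter on low counts (edgeR adjusted p 0.127) and with the replicate number as a block (edgeR adjusted p 0.0553). The gene overlaps Oaz3 on the opposite strand, which had 2 to 16 reads per liver. Mrpl39, at −0.31 ± 0.10, was also lower in every chow female but had an adjusted p of 0.0630 in edgeR. It passed with DESeq2 (adjusted p 0.00727), with library size alone (edgeR adjusted p 0.0437) and without the second statin female (edgeR adjusted p 0.0469). Mrps28 at 0.53 ± 0.20 and Mrps26 at −0.46 ± 0.16 did not pass, with adjusted p-values of 0.118 and 0.101 in edgeR. Both passed with the 2 chow groups fitted alone (edgeR adjusted p 0.0237 and 0.0201), and Mrps28 passed with the length trend in the fit (edgeR adjusted p 0.0148). Mrps6 at 0.57 ± 0.23 was the largest difference on chow, and Mrps31 stood at 0.26 ± 0.13 (edgeR adjusted p 0.261). Mrps6 passed with the length trend (edgeR adjusted p 0.0473), and Mrps34, at −0.37 ± 0.15, with the length trend and with the chow groups alone (edgeR adjusted p 0.0398 and 0.0433).

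On statin, 1 member passed the adjusted p (6.28% of all genes did) and 4 an unadjusted p of 0.05 (19.4% of all genes), all lower in females (7.21% of all genes). The count of 4 became 11 without statin female 1 (20.9% of all genes in that fit) and 8 without statin male 1 (19.1% of all genes). It became 2 without statin male 2 or 3 (15.4% and 17.9% of all genes). In 6 members every statin female was below every statin male (8.46% of all genes), and in 0 members above (11.1% of all genes). The median was −0.11 and 13 of 77 were positive (47.9% of all genes were), and this count moved between 3 without the first statin female and 38 without the second. Mrps18b, one of the Mrps18 paralogs, was the member that passed. Statin females were at 21.6, 17.7 and 20.2 CPM and statin males at 25.9, 27.0 and 27.6 CPM, with no overlap. The difference was −0.44 ± 0.11, a ratio of 0.738, with an adjusted p of 0.0347 in edgeR. On chow the same gene was at 23.0, 23.2 and 21.6 CPM in females and 26.6, 22.7 and 24.2 CPM in males, which overlapped, and the difference was −0.11 ± 0.11. The change in its sex difference between diets is the response difference given above, which did not pass. Among the statin livers, leaving out the second female, the third female or any 1 male raised its adjusted p to between 0.0596 and 0.114, and leaving out chow female 2 or chow male 3 gave 0.0513 and 0.0577. The call was also lost with no filter on low counts (edgeR adjusted p 0.104), with only genes of a mean of at least 10 CPM (0.0664), with the 2 statin groups fitted alone (0.197) and with the replicate number as a block (0.0674). Mrpl9 at −0.25 ± 0.09, Mrpl39 at −0.26 ± 0.10 and Mrpl43 at −0.31 ± 0.11 were also lower in all statin females, with adjusted p-values of 0.163, 0.151 and 0.148 in edgeR. With DESeq2, Mrpl9 and Mrpl39 passed on statin (adjusted p 0.0230 and 0.0260). Mrpl39 had 26.2, 25.5 and 26.5 CPM in statin females and 31.7, 31.6 and 30.2 CPM in statin males. The members with the smallest p on the positive side were Mrpl17 at 0.20 ± 0.20, Mrpl48 at 0.22 ± 0.23 and Mrpl15 at 0.22 ± 0.23, with adjusted p-values of 0.682, 0.697 and 0.708 in edgeR.

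**Figure D5:**
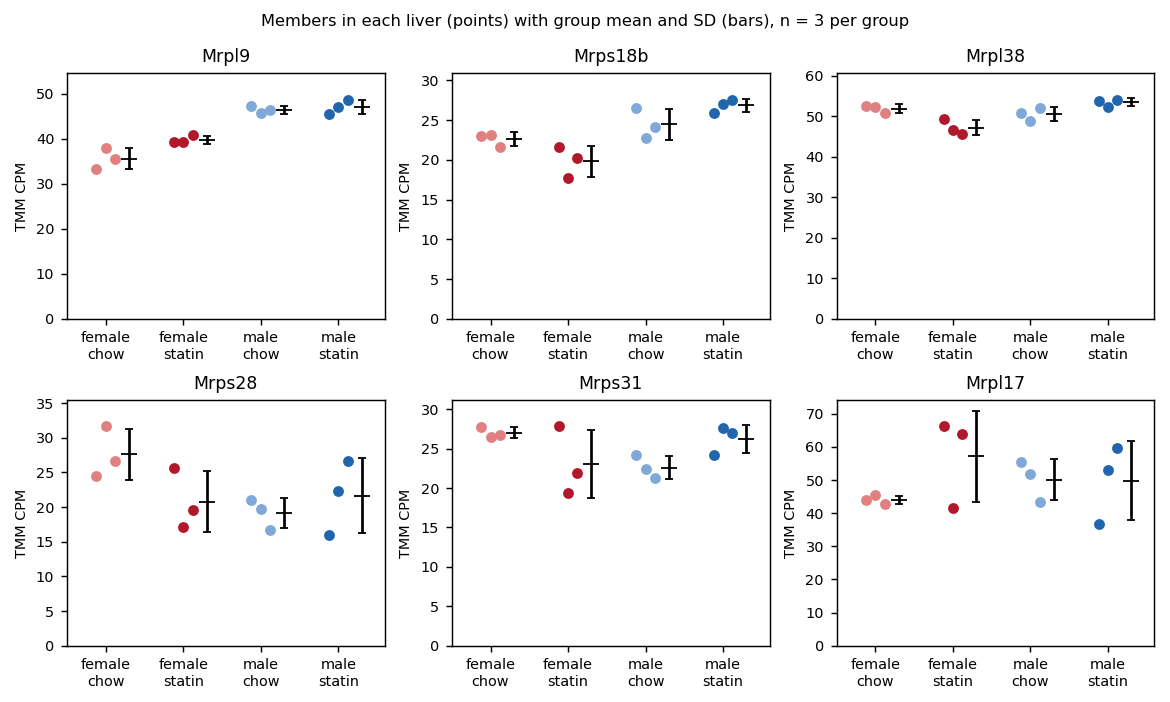
TMM CPM of 6 members in each liver (points) with the group mean and SD (black bars, n = 3). Mrpl9 is lower in all females than in all males, Mrps18b separates the sexes on statin, and Mrps28, Mrps31 and Mrpl17 overlap between diets in females.

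Markers of other liver cells differed between the sexes. The 8 Kupffer cell markers summed to 548 to 651 CPM in chow females and 281 to 444 CPM in chow males, and 6 of 8 were higher in females at an unadjusted p of 0.05 (13.3% of all genes were on chow and 12.2% on statin). On statin the sums were 472 to 754 CPM in females and 274 to 344 CPM in males, with 7 of 8 higher. The 7 stellate cell markers summed to 460 to 532 CPM against 308 to 321 CPM on chow, with 5 of 7 higher, and to 355 to 561 CPM against 273 to 387 CPM on statin, where the sexes overlapped and 4 of 7 were higher. The 7 endothelial markers summed to 325 to 348 CPM against 212 to 294 CPM on chow, with 3 of 7 higher, and to 267 to 390 CPM against 224 to 305 CPM on statin, where they overlapped and 3 of 7 were higher. Of the lymphocyte markers only Cd79b and Ptprc were in the count table. Their sum was 13.6 to 17.2 CPM in chow females, 19.0 to 25.7 CPM in statin females, 9.77 to 15.1 CPM in chow males and 7.94 to 11.6 CPM in statin males. On statin 2 of 2 were higher in females than in males, also by the adjusted p (6.28% of all genes passed it). For statin in females, 2 of 2 had an unadjusted p under 0.05, on the positive side (10.5% of all genes had such a p). The 5 erythroid markers summed to 169 to 192 CPM in chow females, 147 to 283 CPM in statin females, 226 to 240 CPM in chow males and 182 to 248 CPM in statin males. At an unadjusted p of 0.05, 3 of 5 were higher and 1 was lower in statin females than in statin males (7.21% of all genes were lower). None of the markers in the count table was at 0 in any liver, and their part in the sex differences of Mrpl9 and Mrps18b was not tested. For statin against chow, 0 markers of these 5 lists passed an adjusted p in either sex (0.1% of all genes did in females and 0% in males). At an unadjusted p of 0.05, 1 stellate cell marker was lower on statin in females. In males 1 erythroid marker was lower on statin (1.96% of all genes had such a p in males).

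The partners of the members in mitochondrial translation were counted in the same way. Of the 5 mitoribosomal proteins with other symbols, 13 translation factors, 24 assembly and rRNA modification factors, 20 mitochondrial aminoacyl-tRNA synthetases and subunits that amidate tRNA, 12 genes of transcription and mRNA stability, and 10 mitochondrially encoded mRNAs of the count table, 0 passed an adjusted p in either sex or in the difference between them. Their median differences lay between −0.06 and 0.08 in females and between −0.04 and 0.10 in males. At an unadjusted p of 0.05, 2 were on the positive and 2 on the negative side in females, 4 of 84 in all (10.5% of all genes), and 0 in males (1.96% of all genes). The mitochondrially encoded mRNAs summed to 40520 to 56020 CPM per liver. Even so, mt-Co2, mt-Co3 and mt-Atp6 were low, with values given below, and mt-Nd3, mt-Nd4l and mt-Atp8 were below the filter. Tfam, which packages mitochondrial DNA and starts its transcription, was at 0.36 ± 0.13 in females with an adjusted p of 0.312 in edgeR. Sars2, the neighbour of Mrps12, was at −0.36 ± 0.14 with an adjusted p of 0.365 in edgeR, while Mrps12 itself was at −0.05 ± 0.13. Gatc (0.28 ± 0.13) and Polg2 (−0.33 ± 0.13), an accessory subunit of the mitochondrial DNA polymerase, had adjusted p-values of 0.474 and 0.382 in edgeR.

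Among these 84 partners, 2 passed the adjusted p between the sexes on chow (10.4% of all genes did) and 1 on statin (6.28% of all genes did). Mtg1, a GTPase of large-subunit assembly, was lower in chow females, at −0.58 ± 0.16 (edgeR adjusted p 0.0345). Nars2, the asparaginyl-tRNA synthetase, was lower as well, at −0.77 ± 0.17 (edgeR adjusted p 0.0133). On statin, Polg2 was lower in females, at −0.67 ± 0.13 (edgeR adjusted p 0.010). The 10 regulators, among them Nrf1, Gabpa, Yy1 and the PGC-1 genes, had 0 members past the adjusted p for statin in either sex. Ppargc1b, a coactivator of mitochondrial genes, came closest in females at −0.54 ± 0.23 (edgeR adjusted p 0.432).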

How the data were processed

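The authors made strand-specific poly(A) libraries, and the submitters' processing notes name STAR 2.4.1a, HTSeq, edgeR 3.28.1 and build GRCm38. The deposited tables hold raw counts per gene for 11968 genes and CPM for 48526 genes. The CPM gave back whole reads for 100% of values within 0.01 of a whole number, with 0 values differing from the counts, and the count table was found to keep exactly those genes that exceeded 1 CPM in 6 or more livers. Its name calls it TMM-normalized, yet its values are unscaled.

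Ensembl identifiers were matched to symbols, positions and exon lengths in GENCODE vM21 (99.8% of the table had a symbol). Members and gene lists were chosen with earlier results of these data known. All 12 livers were fitted in one edgeR 4.0.16 quasi-likelihood model (R 4.3.3) with 4 groups, TMM scaling and no covariate, and p-values were adjusted by Benjamini-Hochberg over all genes of the table. The SE is the log2 difference over the square root of F. The script was tested on simulated data. Levels for deviations are log2 CPM with a prior count of 2.

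Named were the 4 higher and 4 lower members with the smallest p for statin in each sex and for the difference, the 3 and 3 for the sex comparisons, and the 3 highest and 3 lowest per kilobase. The members in the list of well-described roles and, from each other list, the genes with the smallest p were eligible too. Mrpl13, Mrps5, Mrpl45 and Mrpl21 were named after their values were seen. Alternatives were DESeq2 1.42.0, limma-trend 3.58.1, other scalings and filters, each pair of groups on its own, a block for replicate number, a length trend and leaving out each liver. The labels do not say that replicates were run apart, so p-values measure the spread between these livers. The member with the fewest reads in any liver had 209. The SD within groups was 1.51, 1.63 and 1.86 times that of counting error alone for Mrpl38, Mrpl39 and Mrpl9, and over 2 times it for the other 74 members.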

Additional observations from a re-analysis of the deposited data

Results flagged for a closer look

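For 1 member all 3 statin livers lay below every chow liver in females and above every chow liver in males. Of all 11968 genes, 59 (0.493%) did so, and 134 were separated in opposite directions one way or the other. That member, Mrpl38, a large-subunit protein particular to mitochondria, read 52.6, 52.3 and 50.7 CPM in chow females and 49.3, 46.7 and 45.7 CPM in statin females, so all statin females were lower. In males it read 50.8, 48.8 and 52.1 CPM on chow and 53.9, 52.3 and 54.1 CPM on statin, so all statin males were higher. The female response minus the male response was −0.22 ± 0.13 (SE, log2). The test of that difference did not pass, with an adjusted p of 0.793 in edgeR. It was also among the members that did not follow the shared movement of the group (Pearson correlation 0.12 with the median of the others over 12 livers).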

How the results depend on the processing

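For statin in either sex and for the difference between them, 0 members passed the adjusted p under every alternative run, and with each liver left out. At an unadjusted p of 0.05, females had 1 member with no filter and 3 with the length trend in the fit, and the difference between sexes had 4 with DESeq2, 2 with DESeq2 size factors and 3 with the length trend. Leaving out 1 liver gave 0 to 7 members in females, 0 to 3 in males and 0 to 6 for the difference, with medians from −0.12 to 0.17, −0.03 to 0.23 and −0.22 to 0.06. For sex on chow, where 1 member passed, 2 did with DESeq2 (16.3% of all genes) and with library size alone (10.2%), 4 with groups fitted alone (18.0%, and 11 members unadjusted against 33.3%) or with the length trend (12.8%), and 0 with no filter (5.74%). For sex on statin, 3 passed with DESeq2 (10.7%) and 0 with no filter (3.88%), with a mean of at least 10 CPM (4.61%) or with groups fitted alone (2.44%, and 1 unadjusted against 13.4%), while library size alone gave 7 unadjusted (22.0%). Leaving out 1 liver gave 0 to 2 members on chow (5.31% to 13.3% of all genes), with 3 to 8 unadjusted (19.5% to 28.0%) and a median of −0.12 to 0.04. On statin it gave 0 to 1 (3.16% to 6.21%), with 2 to 11 unadjusted (15.4% to 21.3%) and a median of −0.27 to −0.01. The share of all genes at an unadjusted p of 0.05 ranged over these fits from 6.68% to 15.4% for statin in females, 1.06% to 5.87% in males, and for the difference it was 9.02% with DESeq2, 8.01% with DESeq2 size factors and 9.11% with the length trend. The cause was not tested. Library size alone moved the median of all genes to −0.10 for sex on statin.

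Replicate numbers mark different mice. Same-numbered livers had a mean correlation of −0.11 over 18 pairs, with a range of −0.75 to 0.67. The 36 other pairs had a mean of 0.06 and a range of −0.69 to 0.76. These ranges overlap, so they cannot show whether livers of one number were handled together. With the replicate number as a block, 0 members passed for sex on chow (Mrpl9 adjusted p 0.0553) and 0 for sex on statin (Mrps18b adjusted p 0.0674), both in edgeR, and the statin counts stayed at 0. With no filter the edgeR adjusted p was 0.127 for Mrpl9 on chow and 0.104 for Mrps18b on statin. Signs turned when 1 liver was left out for Mrps25 (−0.22 to 0.0090) and Mrpl40 (−0.19 to 0.094) in males, and for Mrpl48 (−0.015 to 0.42) and Mrpl15 (−0.0029 to 0.40) between sexes on statin. The difference in response was not run with groups fitted alone. Over all 26304 genes with a read, recovered from the deposited CPM, edgeR called 148 genes for statin in females, 0 in males, 103 for the difference, 1511 for sex on chow and 1021 on statin.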

Other observations

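Other groups of short nuclear genes were set beside the members after their values had been seen. The 77 cytosolic ribosomal protein genes of the count table had a median exon length of 1781 bases, and 74 of 77 had a within-group correlation above 0.5 with the median of the mitochondrial members over the 12 livers. Their median deviation was −0.33 in the second statin female and 0.40 in the third statin male, against −0.38 and 0.31 for the mitochondrial members. In the first statin male it was −0.50 against −0.22. The 38 nuclear complex I subunit genes, with a median exon length of 1532 bases, gave −0.36, 0.30 and −0.36 in these 3 livers. For statin, 0 cytosolic ribosomal protein genes had an unadjusted p under 0.05 in either sex, and of the complex I genes 1 did in females and 0 in males (10.5% of all genes did in females and 1.96% in males). Of these complex I genes, 33 of 38 had a correlation above 0.5.

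The 5 mitoribosomal proteins with other symbols, with a median exon length of 2494 bases, had 5 of 5 correlations above 0.5. The 24 assembly and rRNA modification genes, with a median exon length of 3693 bases, had 19 of 24, and the 12 genes of transcription and mRNA stability, at 4184.5 bases, had 7 of 12. Of the 13 translation factors, at 3868 bases, 7 were above 0.5. The 20 mitochondrial aminoacyl-tRNA synthetases and related subunits, with a median exon length of 5174 bases, had 10 of 20 above 0.5 and deviations of −0.17, 0.02 and 0.09 in the same livers. The 10 regulators, at 6351 bases, had 1 of 10 above 0.5. The 10 mitochondrially encoded mRNAs, at 997.5 bases, had 4 of 10 above 0.5, and deviations of −0.09, 0.21 and −0.06. Of these mRNAs, mt-Co2, mt-Co3 and mt-Atp6 were at 0.604 to 4.15 CPM in all livers. Among the 7495 other genes with a mean above 10 CPM, 31.5% were above 0.5 and 41.3% below −0.5. Below −0.5 were 5 of 8 hepatocyte, 5 of 7 liver endothelial, 3 of 7 stellate cell, 1 of 8 Kupffer cell, 2 of 2 cholangiocyte, 0 of 2 lymphocyte and 0 of 5 erythroid markers. These correlations share their 12 libraries and are given as a description.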
